A study of Homo sapiens with 38 samples.

Results

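Sialoglycan-tagged RNA was compared between small extracellular vesicles (sEV) released by KG1a, a human acute myeloid leukaemia cell line, and the KG1a cells themselves. The comparison took 7 of the 38 libraries of the series, 3 of sEV and 4 of cells, all of rPAL-enriched RNA and chosen by their titles. The matched total RNA libraries were not used here. Both groups carry the label WT and no other treatment. The vesicles came from cells held for 2 days in medium without fetal bovine serum, whereas the cell RNA came from cells grown with 10% serum, so source and serum cannot be told apart. The labels name no separate cultures for the replicates, so p-values measure the spread between these samples, which may be technical. How the vesicles were isolated is not given in the sources used here.

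In rPAL the sialic acid of a glycan is opened by periodate and the resulting aldehyde is joined to biotin, so that RNA bearing sialylated glycans can be captured on streptavidin. GlycoRNA described in cultured cells includes Y RNA, small nuclear and nucleolar RNA, tRNA and rRNA. Small vesicles carry short RNA and RNA fragments of many of these classes outside the cell. The libraries were made with a small RNA kit and selected by size, so a count on an mRNA or rRNA entry need not stand for the whole transcript.

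The sEV libraries held 3331112, 6133815 and 2421134 counts in replicates 1 to 3, against 10225549 to 15532758 in the cell libraries. A count was present for 16735, 26722 and 7566 features in sEV and for 18640 to 22711 features in cells. The 10 most abundant features took 60.03%, 55.5% and 73.9% of sEV counts and 26.0% to 29.5% of cell counts. Across 10696 features with at least 50 counts in all, log2 CPM (counts scaled to a library total of 1000000) correlated between sEV libraries with r = 0.697 for replicates 1 and 2, and with r = 0.516 and 0.460 for replicate 3 against each of them. Between cell libraries r was 0.784 to 0.860. The sEV replicate 3 library stood apart, and results are also given without it. By class shares, though not by these correlations, cell replicates 1 and 4 differed from 2 and 3, with mostly tRNA in 1 and 4 and more miRNA precursors in 2 and 3. No library pair held the same values: between 18839 and 33506 features differed.

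Ribosomal RNA was the largest class of every vesicle library, and tRNA that of every cell library. Ribosomal RNA made 62.9%, 63.9% and 58.5% of counts in sEV, against 11.4%, 22.3%, 15.8% and 14.6% in cells. All sEV libraries lay above all cell libraries, with means of 61.8% ± 2.88 in sEV and 16.02% ± 4.57 in cells (SD, n = 3 and 4). Cytosolic tRNA, the adaptor of translation, made 16.8%, 16.2% and 7.51% in sEV, against 72.9%, 38.7%, 39.6% and 77.02% in cells. Every sEV library lay below every cell library, although the cell libraries themselves spread from 38.7% to 77.02%. Long noncoding RNA (lncRNA) entries made 12.1%, 7.12% and 22.2% in sEV, against 1.37% to 4.396% in cells. Most of the excess of the mean lay on LINC01766, AC010745.2 and 6 entries that share reads with FP671120.3. Of these the 6 entries were well above the cells in every sEV library, at 3.79% to 7.18%. LINC01766 made 0.256%, 0.345% and 11.5% in sEV, against 0.314% to 1.49% in cells. AC010745.2 made 2.50%, 0.0130% and 0.000330% in sEV. All other lncRNA features made 2.59%, 2.97% and 3.49% in sEV and 0.727% to 2.67% in cells, where the groups overlapped. Protein-coding entries made 5.76%, 6.13% and 8.26% in sEV, against 1.83% to 3.35% in cells.

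Small regulatory RNA took the opposite place. Mature miRNA entries made 0.195%, 1.09% and 0.168% in sEV, against 3.28%, 6.60%, 9.35% and 1.92% in cells, with no overlap in shares of all counts. Precursor miRNA entries made 0.450%, 2.38% and 0.650% in sEV, against 4.83%, 16.04%, 19.0% and 0.877% in cells. Here the groups overlapped, since sEV replicate 2 exceeded cell replicate 4. Mitochondrial tRNA made 0.0273%, 0.0257% and 0.0152% in sEV and 0.365% to 0.875% in cells. The shares of RNase P RNA overlapped between groups, at 0.282% ± 0.0220 in sEV and 0.325% ± 0.0663 in cells, and so did those of small nuclear RNA, at 0.184% ± 0.0593 in sEV and 0.194% ± 0.0578 in cells.

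A two-sided exact permutation test over the 7 libraries gave p = 0.0571 for rRNA, tRNA, lncRNA, protein-coding, pseudogene, miRNA, snoRNA and mitochondrial tRNA shares. This is the smallest p that 3 against 4 libraries allow. Adjusted over 17 classes it became 0.108, so no class could pass the threshold of 0.05. For precursor miRNA the exact p was 0.114 and its adjusted value 0.194. Leaving out sEV replicate 3, the sEV mean was 63.4% for rRNA, 16.5% for tRNA, 9.63% for lncRNA and 0.640% for miRNA, on the same side of the cell means. The snoRNA share was 0.508% ± 0.127 in sEV and 1.19% ± 0.371 in cells. It overlapped once rRNA was taken out of the totals, at 1.34% ± 0.402 in sEV and 1.44% ± 0.531 in cells (exact permutation p = 0.8). So recomputed, mature miRNA made 1.31% ± 1.47 in sEV and 6.39% ± 4.12 in cells (exact permutation p = 0.114). Precursor miRNA and unspecified ncRNA each went to an exact permutation p of 0.4. The tRNA, lncRNA, protein-coding, pseudogene and mitochondrial tRNA shares kept an exact permutation p of 0.0571. A share is relative, so more of one RNA and less of the others cannot be told apart.

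**Figure D1:**
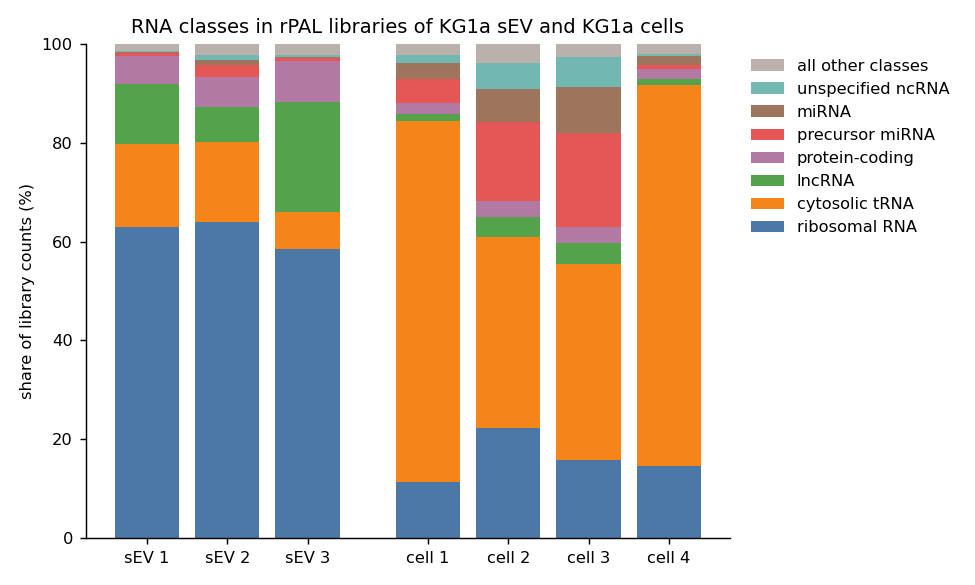
Stacked shares of library counts (%) by RNA class in the 3 sEV and 4 cell rPAL libraries, each bar a library. Ribosomal RNA makes 58.5% to 63.9% of the sEV bars and 11.4% to 22.3% of the cell bars, and tRNA makes 7.51% to 16.8% in sEV and 38.7% to 77.02% in cells.

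The rRNA excess sat on a few entries. The 3 most abundant rRNA entries, from RNAcentral and without a gene name in the tables at hand, made 49.4%, 36.1% and 54.4% of counts in sEV, against 1.73%, 5.26%, 2.44% and 3.16% in cells. URS0002340650 averaged 165715 ± 73019.8 CPM in sEV and 7882 ± 4766 CPM in cells, and rose by 3.54 ± 0.919 on the log2 scale (adjusted p = 0.00941). URS000234028B averaged 147903 ± 83390.5 CPM in sEV and 6247 ± 3862 CPM in cells, and also rose (log2 fold change 3.68, adjusted p = 0.00717). The third entry, at 169459, 209501 and 80300.4 CPM in sEV and 11409 to 26948 CPM in cells, did not pass with all libraries (adjusted p = 0.0719) and passed without sEV replicate 3 (adjusted p = 0.0193). The 10 entries of 5.8S rRNA share reads and did not separate the groups. Together they made 13.5%, 27.5% and 3.999% of sEV counts and 9.60% to 16.9% of cell counts, with sEV on both sides of the cells. Their named member RNA5-8SN2 was not called (log2 fold change -0.46 ± 0.933, adjusted p = 0.896).

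A group of 6 lncRNA entries moved with the rRNA. They share reads and are led by FP236383.2 and FP671120.3, and together they made 6.79%, 3.79% and 7.18% of sEV counts and 0.150% to 0.589% of cell counts. FP671120.3 lies at chr21:8210384-8211306 (GRCh38, minus strand), inside the span of the RefSeq 18S rRNA gene RNA18SN2 at chr21:8209631-8211499. FP236383.2 and FP236383.3 lie inside RNA18SN3 and RNA18SN1 in the same way. FP671120.3 had 11318, 6288 and 11963 CPM in sEV, against 253, 978, 388 and 497 CPM in cells. It rose by 3.44 ± 1.03 on the log2 scale (adjusted p = 0.0292) and by 3.35 ± 0.740 without sEV replicate 3 (adjusted p = 0.00679). The call of FP671120.3 ended without sEV replicate 1 and without sEV replicate 2. The strand used in counting is not given in the sources used here, so reads of 18S rRNA and of these lncRNA entries cannot be told apart. Of all 46 rRNA features tested 3 rose by edgeR, which is 6.52%, against 3.03% of all features. DESeq2 and an unadjusted p under 0.05 each gave 4 higher. None fell in any of these ways, at a class median of -1.01. Without sEV replicate 1 none of 47 was called by edgeR, with 3 higher at an unadjusted p under 0.05.

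Across all features, the edgeR quasi-likelihood test passed 419 of 7895 at an adjusted p under 0.05, which is 5.31%, and such features are named as called. Of these 239 were higher in sEV (3.03%) and 180 were lower (2.28%), and the median log2 fold change of all features was -0.16. The 239 higher features took 45.4%, 20.3% and 56.4% of sEV counts and 0.756% to 3.17% of cell counts, and the 180 lower ones 3.78%, 6.05% and 1.08% of sEV counts and 34.3% to 44.3% of cell counts. Groups did not overlap for 216 of the higher and 123 of the lower features. Over all features tested, 889 had every sEV library above every cell library (11.3%) and 668 had every one below (8.46%). Without sEV replicate 3, 631 of 12053 were called (5.24%), 379 higher (3.14%) and 252 lower (2.09%). Of the features called with all libraries, 196 higher and 154 lower ones were called again.

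These counts rest on single libraries. Without sEV replicate 1 the test called 45, of which 40 were higher, and without sEV replicate 2 it called 218. Leaving out one cell library gave 348 to 542. Scaled by library totals alone, which moved the median of all features to 0.53, 505 were called, of which 372 were higher. With DESeq2 there were 1198, 485 of them higher. Against cell replicates 1 and 4 only, 21 were higher and 241 lower, and against cell replicates 2 and 3 only, 30 were higher and 90 lower. Of the 53 called features named here, 10 were called without each of the 7 libraries in turn. These are AC027449.1, AC016598.2, AL590502.1, GBP3, KCNS1, SMIM8, DNAH17, NEFM, AC051619.7 and MIR7977. Leaving out sEV replicate 1 ended 39 of the 53 calls, sEV replicate 2 ended 19 and sEV replicate 3 ended 4, and each cell library ended 6 to 16.

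**Figure D2:**
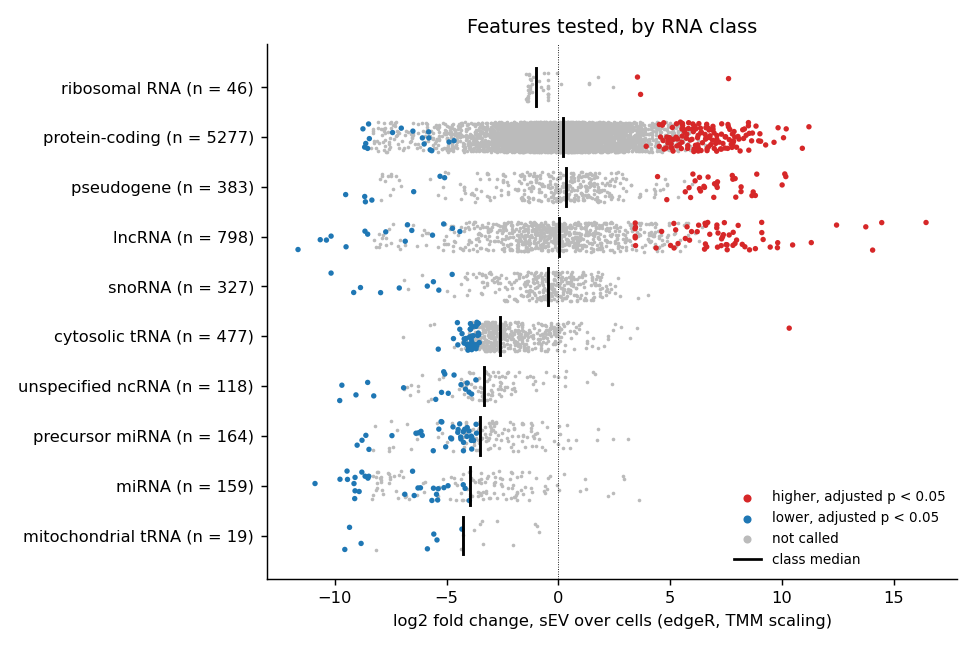
Each point is a feature tested, placed by its log2 fold change (sEV over cells, edgeR after TMM scaling) in rows by RNA class, red or blue where the adjusted p was under 0.05, with the class median as a bar. Medians lie near 0 for protein-coding, pseudogene and lncRNA features and between -2.59 and -4.27 for tRNA, ncRNA, miRNA and mitochondrial tRNA entries.

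Transfer RNA was lower in sEV over most of the class. Of 558 tRNA entries 477 were tested, 42 fell (8.81%, against 2.28% of all features) and 1 rose, and the median log2 fold change was -2.59. The 42 make up 32 groups of entries that share reads. In 280 of the 477 every sEV library lay below every cell library, as in 668 of all 7895 features tested (8.46%). The most abundant, URS0000145C5E, had 7460, 7186 and 752 CPM in sEV and 78626, 43908, 37908 and 115587 CPM in cells. All sEV libraries were low, and sEV replicate 3 lowest. It fell by 4.52 ± 1.06 on the log2 scale (adjusted p = 0.00254), with a log2 fold change of -4.20 ± 0.941 without sEV replicate 3 (adjusted p = 0.00750). The number of tRNA entries that fell was 91 without sEV replicate 3 and 2 without sEV replicate 2. Without sEV replicate 1 edgeR called none of 494, with 227 lower at an unadjusted p under 0.05, and DESeq2 with all libraries called 184. Without cell replicates 1 to 4 in turn it was 20, 88, 87 and 59. Against cell replicates 1 and 4 alone 196 fell, and against cell replicates 2 and 3 alone 3.

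A pair of lncRNA entries on chromosome 15 fell with the tRNA. AC051619.7 (chr15:45198517-45199139) spans the RefSeq histidine tRNA gene TRH-GTG1-7, and AC051619.8 (chr15:45200325-45200632) spans TRH-GTG1-8. AC051619.7 had 0, 0.163 and 0 CPM in sEV, which is a single read, against 43.1, 111, 139 and 24.9 CPM in cells. It fell by 10.37 ± 2.13 on the log2 scale (adjusted p = 0.000312). AC051619.8 had 0.300, 1.14 and 0 CPM in sEV and 16.1 to 147 CPM in cells, and fell by 7.72 ± 1.85 (adjusted p = 0.00341). Reads of the tRNA genes and of these lncRNA entries were not separated here.

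Entries of mature miRNA, of miRNA precursors and of unspecified ncRNA were all lower in sEV by their medians. MicroRNA genes are transcribed as hairpins, cut to precursors and then to mature strands of which the seed pairs with target mRNA. Of mature miRNA entries 159 were tested, 28 fell and none rose by edgeR (1 higher at an unadjusted p under 0.05 and 1 by DESeq2), at a median log2 fold change of -3.97. Of precursor entries 36 of 164 fell (median -3.51), and of entries typed only as ncRNA 18 of 118 (median -3.33). The 82 form 74 groups that share reads, 4 of them over more than 1 of these types, so the 3 falls are in part the same reads. The most abundant mature entry, URS00003768C5, had 584, 3999 and 651 CPM in sEV and 10979.8, 30729, 44333 and 1826 CPM in cells. The groups overlapped, as sEV replicate 2 lay above cell replicate 4. It fell by 4.25 ± 1.11 on the log2 scale (adjusted p = 0.00944), with a log2 fold change of -3.998 ± 1.04 without sEV replicate 3 (adjusted p = 0.0221). Over the 3 types together 75 entries fell without sEV replicate 3, 67 without replicate 2 and 2 without replicate 1. Leaving out cell replicates 1 to 4 in turn gave 76, 48, 45 and 153. Against cell replicates 1 and 4 alone 17 fell, and against cell replicates 2 and 3 alone 70. With all libraries DESeq2 called 222 lower.

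MIR7977 was the most abundant miRNA gene with a symbol. Its mature strand ends in CCA, the letters that also close every mature tRNA, as do 46 of the 2545 mature miRNAs of the RefSeq table (1.81%). It is shown with the strands of MIR1227, MIR6780B and MIR1237, which were called lower and had no count in any sEV library. Capitals mark the seed, bases 2 to 8, and no seed is shared among them (RefSeq, GRCh38.p14).
hsa-miR-7977, chr3:176515103-176515120: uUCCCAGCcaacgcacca
hsa-miR-1227-3p, chr19:2234062-2234081: cGUGCCACccuuuuccccag
hsa-miR-1227-5p, chr19:2234133-2234149: gUGGGGCCaggcggugg
hsa-miR-6780b-5p, chr6:43434547-43434569: uGGGGAAGgcuuggcagggaaga
hsa-miR-6780b-3p, chr6:43434600-43434620: uCCCUUGUcuccuuucccuag
hsa-miR-1237-5p, chr11:64368651-64368671: cGGGGGCGgggccgaagcgcg
hsa-miR-1237-3p, chr11:64368683-64368703: uCCUUCUGcuccgucccccag

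MIR7977 had 85.6, 241 and 0 CPM in sEV, against 2966, 4772, 3804 and 9798 CPM in cells. Every cell library was more than 10 times every sEV library. It fell by 6.45 ± 1.30 on the log2 scale (adjusted p = 0.000249) with a log2 fold change of -6.08 ± 1.08 without sEV replicate 3 (adjusted p = 0.000847). MIR1227 had no count in any sEV library and 19.7, 31.1, 53.3 and 2.32 CPM in cells (adjusted p = 0.00171). Its cell mean lay at least 105-fold above a floor of 3 counts over the sEV group, which is no bound for single libraries. MIR6780B and MIR1237 had no sEV count either, at 0 to 13.2 and 1.16 to 11.8 CPM in cells, where cell replicate 4 lacked MIR6780B too. By their cell means they were at least 30.6-fold and 24.1-fold lower in sEV (adjusted p = 0.0300 and 0.0386). MIR6803, at 1.501, 0 and 0 CPM in sEV and 1.996 to 55.8 CPM in cells, passed with all libraries (adjusted p = 0.0486) and missed the threshold without sEV replicate 3 (0.0653). The call of MIR1227 ended without sEV replicate 1. Those of MIR6780B, MIR1237 and MIR6803 each ended without any one of cell replicates 1, 2 and 3 or sEV replicates 1 and 2. No let-7, myeloid or MIR17-92 gene symbol passed the count filter, and unnamed RNAcentral entries hold most miRNA counts.

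Mitochondrial RNA was scarce in the vesicle libraries. The mitochondrial genome encodes 13 respiratory chain proteins, 22 tRNAs and 2 rRNAs, which are cut from long transcripts of both strands. Of its tRNAs 19 were tested and 7 fell (36.8%, against 2.28% of all features), at a median log2 fold change of -4.27. The 4 of these with the most counts in cells are shown, with the anticodon in capitals (GENCODE 29, GRCh38, written as the gene's own strand).
MT-TV, valine, chrM:1602-1670: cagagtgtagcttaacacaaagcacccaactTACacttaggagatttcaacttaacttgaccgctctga
MT-TC, cysteine, chrM:5761-5826: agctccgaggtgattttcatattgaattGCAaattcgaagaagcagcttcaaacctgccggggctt
MT-TH, histidine, chrM:12138-12206: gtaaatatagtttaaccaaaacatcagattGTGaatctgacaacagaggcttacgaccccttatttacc
MT-TI, isoleucine, chrM:4263-4331: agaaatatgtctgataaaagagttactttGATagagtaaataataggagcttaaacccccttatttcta

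MT-TV had 187, 188 and 102 CPM in sEV, against 3072, 7368, 3345 and 3344 CPM in cells. It held most of the mitochondrial tRNA counts in every library, and its groups did not overlap. It fell by 5.43 ± 1.26 on the log2 scale (adjusted p = 0.00238) with a log2 fold change of -5.27 ± 0.969 without sEV replicate 3 (adjusted p = 0.00109). MT-TC had 6.30, 11.1 and 0 CPM in sEV and 123 to 311 CPM in cells (log2 fold change -5.86 ± 1.52, adjusted p = 0.00920). MT-TI had 6.90, 7.66 and 0 CPM in sEV and 94.0 to 297 CPM in cells (adjusted p = 0.0159). MT-TH had 16.5, 19.9 and 0 CPM in sEV and 85.9 to 338 CPM in cells (adjusted p = 0.0490). Leucine, methionine and phenylalanine tRNAs MT-TL1, MT-TM and MT-TF had no count in sEV and were at least 39.1-fold, 33.9-fold and 21.8-fold lower (adjusted p = 0.0196, 0.0253 and 0.0375). Of the called ones only MT-TC comes from the genome's other strand, which holds 8 of the 22 tRNA genes.

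Mitochondrial mRNAs separated sEV replicate 3 from the other vesicle libraries. All 13 were tested, and with all libraries 4 fell (30.8%, against 2.28% of all features). They were MT-ND1, MT-ND2, MT-ND3 and MT-ND6, which encode subunits of complex I. MT-ND1 had 9.31, 7.66 and 0.413 CPM in sEV and 259.9, 385, 387 and 110.4 CPM in cells, and fell by 6.08 ± 1.51 on the log2 scale (adjusted p = 0.00605). Without sEV replicate 3 all 13 fell, at a median log2 fold change of -4.92 in place of -3.52. MT-CO3, a subunit of cytochrome c oxidase, had 9.31, 5.22 and 361 CPM in sEV, against 239, 365, 156 and 85.3 CPM in cells. Its level in sEV replicate 3 lay within the range of the cells, and its adjusted p was 0.404 with that library and 0.00298 without it. Summed over the 12 mRNAs of 1 strand, sEV replicates 1 and 2 held 156 and 114 CPM and sEV replicate 3 held 1371 CPM, against 1414 to 4200 CPM in cells. The 14 tRNAs of the same strand showed no such rise in sEV replicate 3, which held 102 CPM against 226 and 222 CPM in replicates 1 and 2, and 3393 to 8084 CPM in cells.

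Without sEV replicate 1, edgeR called none of 21 mitochondrial tRNAs and none of the 13 mRNAs, with 16 and 7 lower at an unadjusted p under 0.05. With all libraries DESeq2 called 12 tRNAs and 7 mRNAs lower. Without sEV replicate 2 edgeR called 2 of each, without cell replicate 2 it called 6 tRNAs and 1 mRNA, and without sEV replicate 3 it called 9 tRNAs. Nuclear pseudogenes of mitochondrial genes fell too, and make 6 of the 7 pseudogenes called lower. They are MTND2P28, MTCO1P40, MTCO1P22, MTCO1P53, MTND3P19 and MTND5P10, of 37 such pseudogenes tested, and the seventh is MAPK6P1. Over all features 2.28% were called lower. Log2 fold changes of the 37 reached 5.35. Without sEV replicate 3, 10 of 45 fell and 2 rose, where 2.09% of all features fell and 3.14% rose. Summed over all 394 listed, sEV held 126, 181 and 582 CPM and cells 1096, 1772, 1056 and 508 CPM, so sEV replicate 3 lay above cell replicate 4. MTND2P28 on chromosome 1 had 7.81, 3.26 and 50.8 CPM in sEV and 103 to 701 CPM in cells, close to MT-ND2 with 12.9, 3.91 and 73.1 CPM in sEV and 112 to 780 CPM in cells. Both were high in the same libraries of each group. Reads that fit the mitochondrial gene and its nuclear copy cannot be told apart in these counts, and both calls ended without sEV replicate 1, without sEV replicate 2 and without cell replicate 2.

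**Figure D3:**
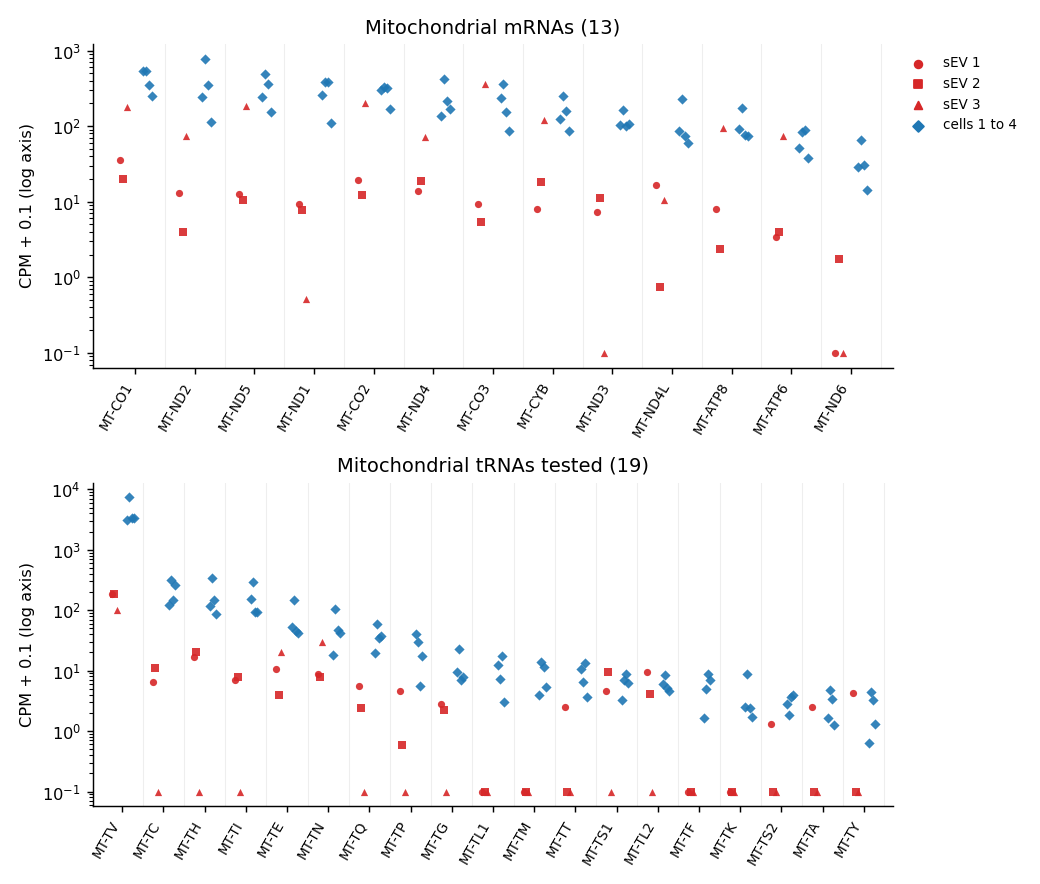
CPM plus 0.1 on a log axis for the 13 mitochondrial mRNAs (top) and the 19 tested tRNAs (bottom), with sEV replicates in red by shape and the 4 cell libraries in blue. The sEV replicate 3 points of MT-CO2, MT-CO3, MT-CYB, MT-ND5, MT-ATP6 and MT-ATP8 lie within the range of the cell points, while its tRNA points lie at 0 except for MT-TV, MT-TN and MT-TE.

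Y RNA and vault RNA genes had few counts in sEV. RNY1, a Y RNA that binds the Ro60 protein, had 3.002, 17.8 and 0 CPM in sEV, against 96.4, 103, 92.3 and 80.8 CPM in cells, with no overlap. Its log2 fold change of -4.48 ± 1.51 missed the threshold (adjusted p = 0.0527) and it was called without sEV replicate 3 (-4.11 ± 1.09, adjusted p = 0.0243). RNY3 had 2.10, 0 and 0 CPM in sEV and 0 to 18.5 CPM in cells (adjusted p = 0.305). The vault RNA VTRNA1-3, a part of the vault ribonucleoprotein, had no count in sEV and 3.80 to 6.92 CPM in cells, at least 20.1-fold lower (adjusted p = 0.0399). Its call ended without cell replicate 3, sEV replicate 1 or sEV replicate 2. Of 327 snoRNA entries, guides of rRNA modification, 9 fell and none rose (2 higher at an unadjusted p under 0.05 and 1 by DESeq2). The 9 are 2.75% of the class, near the 2.28% of all features that were called lower. The median was -0.46 and turned to 0.22 when scaled by library totals alone. Without sEV replicate 1 none of 389 was called by edgeR (43 lower at an unadjusted p under 0.05), and without cell replicates 1, 2 and 3 in turn 3, 3 and 4 fell. SNORD37 had 0, 2.45 and 0 CPM in sEV and 15.5 to 28.8 CPM in cells, and fell by 5.35 ± 1.78 (adjusted p = 0.0499). RABGGTB, an mRNA gene whose span holds SNORD45A to C, fell as well (adjusted p = 0.0490). SNORD37 and RABGGTB lost their calls without any of the cell libraries in turn and without sEV replicate 1. None of the 8 tested spliceosomal snRNA genes, 3 scaRNAs or the 7SL gene was called (1 snRNA gene lower at an unadjusted p under 0.05 and by DESeq2).

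The features that rose were mostly lncRNA, mRNA and pseudogene entries. Of 798 lncRNA features tested 61 rose (7.64%) and 15 fell (1.88%), and of 383 pseudogenes 31 rose (8.09%) and 7 fell (1.83%). Among 5277 protein-coding features 137 rose (2.60%) and 17 fell (0.322%). For all features these shares were 3.03% and 2.28%, so the share of protein-coding features that rose was near that of all features. With DESeq2, 338 of the 5277 protein-coding features rose, beside 485 of all 7895. Of the 239 that rose 42 had no count in any cell library, and 155 averaged under 50 CPM in sEV. The highest sEV value was in replicate 1 for 103 of them, in replicate 2 for 81 and in replicate 3 for 55. Without sEV replicate 3, 107 lncRNA, 209 protein-coding and 41 pseudogene features rose, without replicate 2 it was 31, 70 and 11, and without replicate 1 it was 16, 19 and 2. Against cell replicates 1 and 4 alone 5 lncRNA and 11 protein-coding features rose. Leaving out 1 library gave 2 to 24 lncRNA, 0 to 26 protein-coding and 1 to 11 pseudogene features that fell, the fewest without sEV replicate 1, or for pseudogenes without sEV replicate 1 or 2. The 0 was among 7326 protein-coding features, with 312 lower at an unadjusted p under 0.05.

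AC027449.1, an lncRNA at chr18:22347846-22348252, had 5767, 528 and 849.6 CPM in sEV, against 0, 0, 0 and 0.193 CPM in cells. It had 3 cell reads in all and rose by 14.46 ± 1.71 on the log2 scale (adjusted p = 1.09e-13), with a log2 fold change of 14.75 ± 1.39 without sEV replicate 3 (adjusted p = 5.13e-08). AC010745.2, an lncRNA on chromosome 2, had 24969.7, 130.3 and 3.30 CPM in sEV and 0 to 0.0918 CPM in cells. It made 2.50% of sEV replicate 1 alone, and although called with all libraries (adjusted p = 8.94e-17) it lost the call without cell replicate 2, 3 or 4. AC016598.2, on chromosome 5, had 1979, 122 and 65.7 CPM in sEV and 1 read in all cell libraries (adjusted p = 2.68e-11). AL590502.1, on chromosome 10, had 230, 35.4 and 15.3 CPM in sEV and no cell read, at least 1553-fold higher (adjusted p = 1.74e-06). In all 4, sEV replicate 1 was the highest library.

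The same order held for several mRNA entries. GBP3, an interferon-inducible GTPase, had 418, 41.2 and 65.7 CPM in sEV and 0 to 0.152 CPM in cells (log2 fold change 11.20 ± 1.83, adjusted p = 1.28e-06). KCNS1, a modifier subunit of voltage-gated potassium channels, had 197, 35.5 and 37.999 CPM in sEV and 0 to 0.0761 CPM in cells (adjusted p = 1.23e-05). SMIM8, a small membrane protein gene, had 242, 88.5 and 47.1 CPM in sEV and 0 to 0.0918 CPM in cells (adjusted p = 1.31e-05). The pseudogene AC133561.4, on chromosome 16, had 197, 34.4 and 5.37 CPM in sEV and 0 to 0.196 CPM in cells, and lost its call without sEV replicate 1. Named after their values were seen, CAPZB, which encodes an actin capping protein, had 2947, 352 and 252 CPM in sEV and 0.391 to 5.71 CPM in cells (log2 fold change 7.89 ± 1.39, adjusted p = 1.10e-05). DNAH17, an axonemal dynein heavy chain, had 1283, 384 and 162 CPM in sEV and 0.193 to 2.44 CPM in cells. NEFM, a neurofilament subunit, had 998, 501 and 56.2 CPM in sEV and 0.293 to 2.12 CPM in cells, and RPS6KB2, a ribosomal S6 kinase, 1689, 278.9 and 236 CPM in sEV and 0.456 to 10.3 CPM in cells. All of these lay above every cell library in every sEV library, as the naming rule required for GBP3, KCNS1, SMIM8 and AC133561.4. CAPZB and RPS6KB2 lost their calls without sEV replicate 1.

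HMGB1P25 and HSP90AB1 rose as well and were highest in another sEV library. The pseudogene HMGB1P25 had 364, 605 and 2154 CPM in sEV and 7.60 to 25.9 CPM in cells, and rose by 4.85 ± 1.25 (adjusted p = 0.00900). HSP90AB1, a cytosolic chaperone mRNA often found in vesicle preparations as protein, had 183, 267 and 767 CPM in sEV and 3.65 to 17.2 CPM in cells (log2 fold change 3.93 ± 1.28, adjusted p = 0.0455). Both peaked in sEV replicate 3 and kept their calls without it, at adjusted p = 0.00298 and 0.0241, but neither was called without sEV replicate 1, and HSP90AB1 also not without sEV replicate 2. Among mRNAs that fell, ROBO2, an axon guidance receptor, had 1.20, 2.93 and 0 CPM in sEV and 26.7 to 194 CPM in cells (log2 fold change -7.02 ± 1.69, adjusted p = 0.00386). ZMYM2, a zinc finger gene, had 7.20, 8.31 and 0 CPM in sEV and 18.2 to 488 CPM in cells (adjusted p = 0.0130). Neither was called without sEV replicate 1, and ZMYM2 also not without cell replicate 2.

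**Figure D4:**
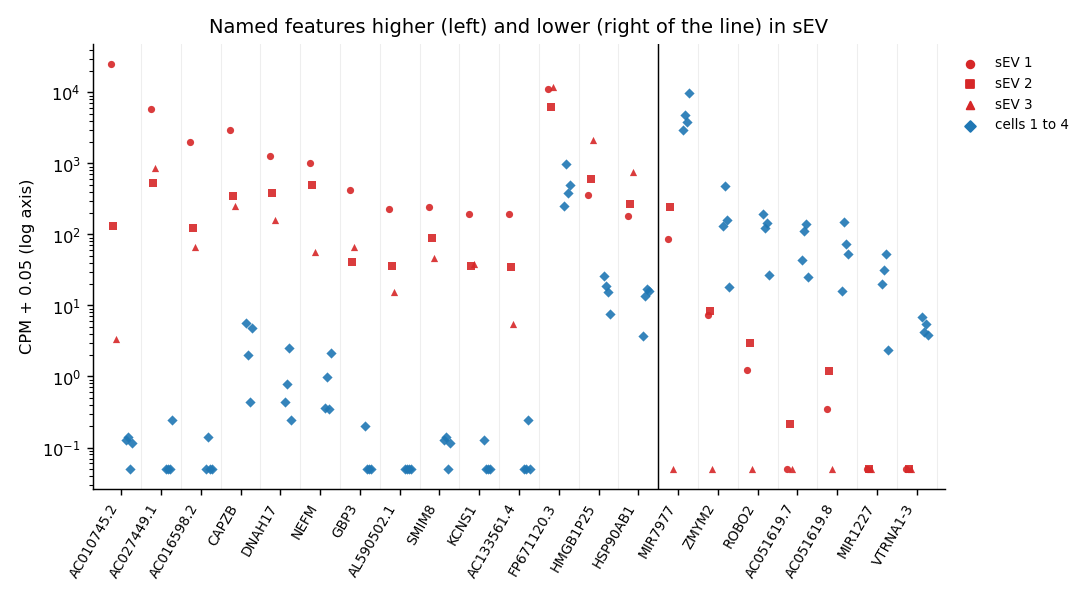
CPM plus 0.05 on a log axis for features higher (left of the line) and lower (right) in sEV, with sEV replicates in red by shape and the 4 cell libraries in blue. From AC010745.2 to AC133561.4 the sEV replicate 1 point is the highest, and for HMGB1P25 and HSP90AB1 that of replicate 3 is. No sEV point overlaps the cells, but many features were named for having no overlap or after values were seen.

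Replicate 3 of sEV decided a set of results by itself. LINC01766, an lncRNA on chromosome 19, had 2556, 3446 and 115367 CPM in sEV, which is 11.5% of replicate 3, against 3141, 11294, 14877 and 3472 CPM in cells. HP, which encodes the plasma protein haptoglobin, had 160.3, 187 and 15596 CPM in sEV and 499.8, 1453, 3086 and 611 CPM in cells. ZDHHC3, a palmitoyltransferase gene, had 26.7, 24.8 and 3643 CPM in sEV and 218 to 1958 CPM in cells, and LINC01780 49.2, 49.4 and 7381 CPM in sEV and 416 to 3783 CPM in cells. In all 4, replicate 3 exceeded every cell library, and replicates 1 and 2 lay below every cell library for HP, ZDHHC3 and LINC01780. With all libraries none was called, at adjusted p = 0.644 for LINC01766, 0.846 for HP, 0.900 for ZDHHC3 and 0.914 for LINC01780. Without replicate 3, HP was lower in sEV by a log2 fold change of -3.68 ± 0.957 (adjusted p = 0.0221), ZDHHC3 by -5.48 ± 1.13 (adjusted p = 0.00341) and LINC01780 by -5.49 ± 1.10 (adjusted p = 0.00274). LINC01766 stayed uncalled (-2.12 ± 0.818, adjusted p = 0.131).

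The reverse was seen for KCNQ1DN and GPX3, named after their values were seen. KCNQ1DN, an lncRNA of the imprinted region on chromosome 11, had 0.300, 2.45 and 6451 CPM in sEV and 0 to 12.7 CPM in cells. GPX3, which encodes a secreted glutathione peroxidase, had 0.300, 1.96 and 1759.9 CPM in sEV and 0 to 1.03 CPM in cells. Both were called higher with all libraries, at log2 fold changes of 7.81 ± 1.49 and 8.96 ± 1.58 (adjusted p = 0.000156 and 1.10e-05). Without replicate 3 they were at -2.29 ± 1.99 and 0.44 ± 2.14 (adjusted p = 0.662 and 0.979). KCNQ1DN was also not called without cell replicate 2, 3 or 4, nor GPX3 without any 1 of the cell libraries. Among the 239 higher features, 12 had more than 10 times the CPM of both other sEV libraries in replicate 3. Without that library 281 features were newly called, 183 higher and 98 lower. Only 150 of the 281 were tested in both fits. The others entered through the count filter, which kept 12053 features without that library and 7895 with it.

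**Figure D5:**
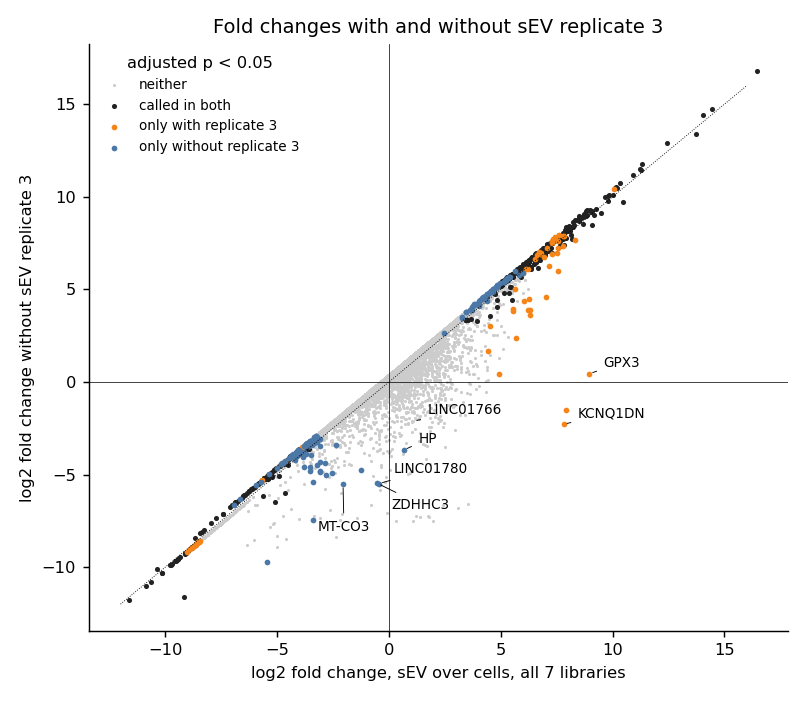
Log2 fold change (sEV over cells) with all 7 libraries on the x axis and without sEV replicate 3 on the y axis, for 7893 features tested in both fits. Most points follow the diagonal, with 350 called in both, while HP, ZDHHC3, LINC01780, LINC01766, KCNQ1DN, GPX3 and MT-CO3 lie far below it.

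Few members of the housekeeping and lineage lists were called. Of 27 symbol lists 21 had a tested member and 15 of these had none called by edgeR, over 164 features with 1 higher and 12 lower at an unadjusted p under 0.05, and 8 lower by DESeq2. Over all features 5.31% were called, and medians of lists without a call ran as far as -4.07 for 2 Y RNA genes, -2.44 for 3 primitive myeloid markers and 1.95 for 2 platelet markers. None of 45 large-subunit ribosomal protein mRNAs was called (median -1.19), and none of 13 glycolysis mRNAs was called (median 1.04). Scaled by library totals alone these medians were -0.36 and 1.77. Of 20 mRNAs of vesicle-associated proteins 8 were tested and only HSP90AB1 rose, and of 13 tested cytoskeleton mRNAs only CAPZB rose.

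The cell label was checked by marker mRNAs, which had few counts in small RNA libraries. CD34, the surface antigen by which KG1a is known, had 0.300, 0.326 and 0 CPM in sEV and 4.87, 11.2, 1.96 and 3.03 CPM in cells (adjusted p = 0.149). Summed over 9 primitive myeloid markers, the range was 0.826 to 19.7 CPM in sEV and 10.0 to 24.1 CPM in cells. Over 8 neutrophil granule markers it was 0.413 to 7.83 CPM in sEV and 0.0761 to 1.37 CPM in cells, and over 7 erythroid markers 0 to 0.300 CPM in sEV and 0 to 0.391 CPM in cells. The 10 liver and plasma markers summed to 161 to 15596 CPM in sEV and 501 to 3086 CPM in cells, nearly all of it HP. No vesicle marker protein can be checked in RNA counts.

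In HL60, a second acute myeloid leukaemia line in the series, sEV and cell rPAL RNA came from 3 libraries each that share none with KG1a. Here too the sEV came from cells held for 2 days without serum, and the cells were grown with 10% serum. Source and serum thus cannot be told apart in HL60 either. Ribosomal RNA made 50.9% ± 13.6 in HL60 sEV and 6.45% ± 1.20 in HL60 cells, and tRNA 9.48% ± 2.68 in sEV and 67.0% ± 6.31 in cells. The lncRNA share was 15.4% ± 6.33 in HL60 sEV and 15.3% ± 7.14 in HL60 cells, beside 13.8% ± 7.68 in KG1a sEV and 2.82% ± 1.59 in KG1a cells. The difference between lines in class shares was not tested. Per feature it was tested as an interaction, and 17 of 9295 features were called (0.183%), 11 with a higher (0.118%) and 6 with a lower (0.0646%) fold change in KG1a. This number was 98 without HL60 sEV replicate 1, 30 without KG1a sEV replicate 2 or 3, 27 or 28 without HL60 sEV replicate 2 or 3, and 27 without KG1a cell replicate 1. Of the named features SMIM8 was among them, at 126 CPM in KG1a sEV and 0.0581 CPM in KG1a cells, and at 0.140 CPM in HL60 sEV and 0.402 CPM in HL60 cells (interaction 12.16 ± 2.70, adjusted p = 0.0152). The most abundant unspecified ncRNA entry differed the other way, at 700 CPM in KG1a sEV and 4164 CPM in KG1a cells, and at 37.8 CPM in HL60 sEV and 1.17 CPM in HL60 cells (-8.02 ± 1.45, adjusted p = 0.00141). In KG1a alone that entry missed the threshold (adjusted p = 0.0592). VTRNA1-3, called lower in KG1a sEV, averaged 103 ± 106 CPM in HL60 sEV and 16.2 ± 5.82 CPM in HL60 cells. Its interaction missed the threshold (-10.52 ± 2.70, adjusted p = 0.0656). For MIR7977, MT-TV and AC027449.1 the interaction was not called (adjusted p = 0.961, 1.00 and 0.970), with MIR7977 at 54.7 CPM in HL60 sEV and 2108 CPM in HL60 cells.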

How the data were processed

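The deposited table holds raw counts per feature for each library. Per the submitters' processing notes, the authors used Bowtie2 and the human build GRCh38. The counting program, its strand setting and its treatment of reads with several hits are not given in the sources used here. Of 90127 features, 86401 carry Ensembl and 3726 RNAcentral identifiers, and GENCODE 29 gave 57355 a symbol. The 7 libraries were fitted in edgeR 4.0.16 (R 4.3.3) by its quasi-likelihood method, after filterByExpr and TMM, with robust dispersions. The p-values were adjusted after Benjamini and Hochberg over all features tested. DESeq2 1.42.0 served as an alternative. Fold changes (± SE) follow TMM scaling and CPM the library totals, hence a ratio of mean CPM need not equal the fold change. The fit was run on simulated counts with known changes, at the estimated spread and at a lower one. Recovery of the changes was required only at the lower spread, so power at the spread of these data is not shown. Class shares were compared by exact permutation (scipy 1.17.1). Features whose log2 counts, plus 1, differ by at most 0.2 in all 7 libraries are taken to share reads. Reads carry no molecular identifiers, so the floor of 3 counts covers counting error only. A fold given as "at least" sets the mean CPM of a group against this floor over the summed counts of the other. It is no bound for single libraries. Alternatives were other scalings and filters, the replicate number as a block, and libraries left out.

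The comparison, lists and alternatives were chosen with earlier results of these data known. Features were named by rule: those with a symbol, called, at 50 CPM or more and without overlap, taking 8 per direction by size of fold change (6 without sEV replicate 3); the 5 with most CPM per group; a fixed panel; the most abundant of each class; and up to 6 miRNA genes with a RefSeq sequence. The text gives a part of them. Chosen after values were seen, besides those so marked, were FP671120.3, FP236383.3, the pseudogenes of mitochondrial genes other than MTND2P28, MAPK6P1, HSP90AB1, SNORD37, RABGGTB and the rRNA entries other than the most abundant. Mitochondrial genes form a list.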

Additional observations from a re-analysis of the deposited data

Results flagged for a closer look

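Among 74 sets of values over the 4 cell libraries, 9 held a library whose gap to its neighbour, as a ratio of the whole range, exceeded Dixon's critical value, which chance passes in about 1 set of 20. Cell replicate 2 stood high for the mitochondrial tRNA share (ratio 0.937), MT-TV (0.936) and MT-ND3 (0.881), at 0.875%, 7368 CPM and 161 CPM. RPS6KB2 was at 10.3 CPM in cell replicate 4 (ratio 0.851). For AC027449.1, AC016598.2, GBP3, KCNS1 and AC133561.4 the ratio was 1, because 1 cell library held 1 to 3 reads and the others none.

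Of the named features, 2 differed between KG1a and HL60 in the test of that difference, SMIM8 by 12.16 and the most abundant unspecified ncRNA entry by -8.02 on the log2 scale.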

How the results depend on the processing

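The number of features called, 419, was 652 with RLE scaling, 679 with TMMwsp scaling, 505 with library totals alone, 116 with no count filter, 219 at a minimum of 10 CPM in 3 libraries and 1198 with DESeq2. It was 262 without cell replicates 2 and 3, 120 without cell replicates 1 and 4, and 45 to 631 with 1 library left out. Of the calls with RLE scaling 334 were higher, with TMMwsp 328, at 10 CPM 162 and without the filter 59. With the replicate block it was 166. The labels state no pairing of sEV and cell libraries. Those of the same number deviated with r = 0.017, -0.051 and 0.004. In libraries this variable such values cannot show whether equal numbers share a culture. Under the block no class share could go below an exact p of 0.25.

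The number that differed between KG1a and HL60, 17, was 5 with no count filter, 201 with DESeq2, 4 with the replicate block and 15 to 98 with 1 library left out.

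For 11 of the 17 class shares the difference was recomputed under 3 other settings and without each of the 7 libraries, and none of these changed direction. Of the others, SRP RNA and small nuclear RNA turned without sEV replicate 3, to sEV means of 0.0793% and 0.205%, against 0.149% and 0.184% with it and 0.0949% and 0.194% in cells. Of named features, LINC01766 reversed to -0.14 under the block, RNA5-8SN2 to 0.23 with library totals alone and 0.77 at 10 CPM, HP to -1.31 under the block and MT-CO3 to 0.23 at 10 CPM. LINC01780 reversed to 0.45 with RLE, 0.43 with TMMwsp, 0.77 with totals alone, 1.68 at 10 CPM, 0.45 with DESeq2 and 0.75 without cell replicates 2 and 3. ZDHHC3 did so at 0.37, 0.35, 0.69, 1.61, 0.37 and 0.67 in the same settings. None of these was called with all libraries. With 1 library left out, log2 fold changes ran from -2.12 to 2.49 for LINC01766, -3.68 to 2.33 for HP, -5.49 to 1.55 for LINC01780, -5.48 to 1.47 for ZDHHC3 and -2.29 to 10.34 for KCNQ1DN, which was called with all libraries. The cause was not tested.

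Depth limits the sEV side most. A count stood for 0.163 to 0.413 CPM in sEV and 0.0644 to 0.0978 CPM in cells, so a feature at 0 in sEV is below its floor, not shown to be absent.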
